A study of Mus musculus with 2 samples.

Results

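Sirpa, Lilrb4a, Pilra, Cd300a, Cd300lf, Clec12a and Clec4a2 encode inhibitory receptors that are known from myeloid cells, and these 7 of 22180 measured genes are described here. The list was selected on the log2 intensities of these same arrays, with the differences between them already known, so the values below describe the list and nothing was tested on them. Each gene was read from probe sets that carry its symbol alone, and each had 1 such probe set. RefSeq's table of assembly GRCm38.p6 held the Entrez IDs of all 7 under the same symbols.

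The study measured gene expression on 2 whole-transcript mouse arrays, 1 for each group. Both samples came from spleens of mice with the genotype Fx-/-. Fx, now called Gfus, encodes an enzyme that makes GDP-fucose from mannose, so these mice depend on supplied fucose for fucosylated glycans. The fucose-treated sample (with fucose) was compared with the sample given no fucose treatment (without fucose), and there was no array of mice with intact Fx. Per the labels, cells carrying B220 or CD11b were depleted with beads, cells with CD11c were then selected, and the result was labelled type 1 conventional dendritic cells (cDC1). Strain, age, dose and duration of the fucose supply and the number of mice behind each array are not given in the labels used here.

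An inhibitory receptor of this kind usually carries an immunoreceptor tyrosine-based inhibitory motif (ITIM) in its cytoplasmic part. Kinases of the Src family phosphorylate the tyrosine, and phosphatases such as SHP-1 (Ptpn6), SHP-2 (Ptpn11) and SHIP1 (Inpp5d) dock there and damp signalling by activating receptors. Many of these receptors sit in gene families that also hold activating relatives, which signal through small adaptors such as DAP12 (Tyrobp) and the Fc receptor gamma chain (Fcer1g). Monocytes, macrophages, granulocytes and dendritic cells express them in differing combinations.

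The arrays differed in more than fucose supply, and the labelled cell type was only partly borne out by its markers. Cd3e, a T cell receptor chain, had a log2 intensity of 10.97 with fucose and 10.55 without fucose, and all 9 measured T cell genes lay above the median of all probe sets on both arrays. Xcr1, a defining receptor of cDC1, had 2.90 and 3.43. Itgax, which encodes CD11c, had 3.83 and 3.86, and the array medians were 2.81 and 2.82. All 11 measured cDC1 genes lay above these medians too, with Xcr1 the lowest on both arrays and Naaa at 5.97 and 8.36. Xist, the X-inactivation RNA of female cells, had 8.26 with fucose and 2.82 without fucose, while the Y-linked Uty had 2.14 and 5.26. The sex of the mice is not in the labels used here, and sex and fucose supply cannot be told apart. With 1 array per group, no difference below has a replicate check, and the number of arrays limits the precision. In RNA from mixed cells, fewer cells of a type and less RNA per cell also cannot be told apart.

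Lilrb4a, Clec12a and Sirpa were the 3 receptor genes with at least 2-fold higher values without fucose, and the other 4 differed by at most 0.38 on the log2 scale. Among all measured genes, 1.20% had values higher by 2-fold or more without fucose, and 0.257% had values lower by as much. Among the 11090 genes whose mean log2 intensity reached the median of all genes (2.88, the expression filter), that share was 2.37%, and 0.514% were at least 2-fold lower. The same 3 receptor genes passed 1.5-fold, as did 5.77% of genes past the filter, and 3-fold, as did 1.06%. The list was made with this comparison known, so its count is not read against these shares. All 7 differences were positive, as were those of 47.6% of all genes, and 3 of them came to 0.011 with values held at no less than the array median. Their median was 0.38, against -0.00081 over all genes. Past the filter were Sirpa, Lilrb4a, Cd300a and Clec12a, and Clec12a reached it through its no-fucose value.

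**Figure D1:**
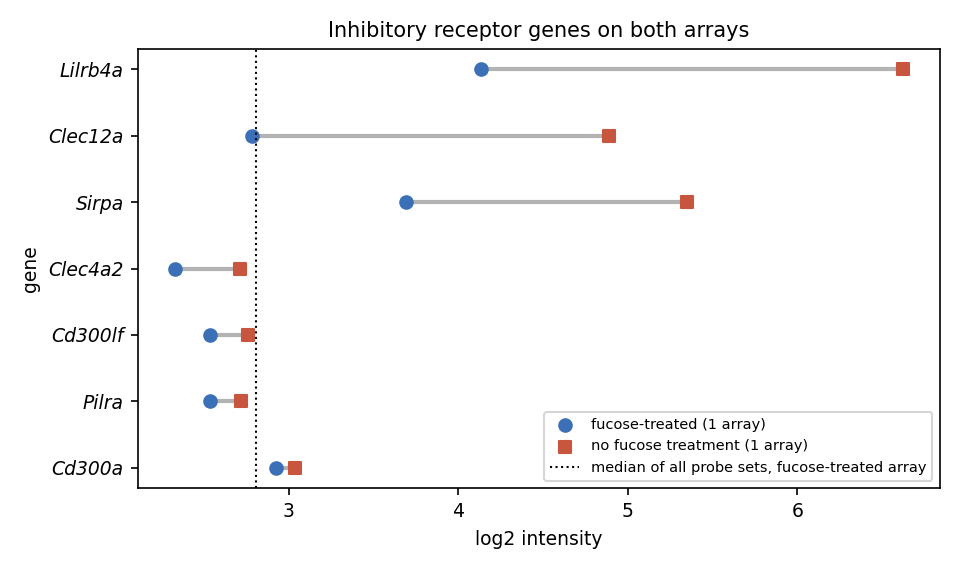
Log2 intensity (horizontal axis) of each of the 7 receptor genes on the fucose-treated array (circles) and on the array with no fucose treatment (squares), 1 array each, with the gray bar as the difference and the dotted line as the median of all probe sets on the fucose-treated array (2.81). Lilrb4a, Clec12a and Sirpa reach 6.62, 4.89 and 5.35 without fucose, and the other 4 stay within 0.48 of the median of their array on both arrays.

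Lilrb4a encodes gp49B, a leukocyte immunoglobulin-like receptor with ITIMs that restrains mast cells, macrophages and dendritic cells. Its intensity was 17.6 with fucose and 98.7 without fucose (probe set 17233226). On the log2 scale these are 4.14 and 6.62, a difference of 2.49 or 5.61-fold, and the gene held place 47 among the differences of the 11090 genes past the filter. A second probe set that names Lilrb4a together with its close relative and neighbour Lilr4b had 2.73 and 3.15, a difference of 0.42. It does not separate these genes, so the size of the Lilrb4a difference rests on 1 probe set. Lilr4b had no probe set of its own.

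Clec12a encodes a C-type lectin-like receptor with an ITIM that senses uric acid crystals and dead cells. Its intensity was 6.88 with fucose and 29.6 without fucose (probe set 17463509). The log2 values were 2.78 and 4.89, and the difference of 2.11 corresponds to 4.31-fold. The with-fucose value lay just under the median of its array, a level at which signal and background are hard to separate, so the true difference may be understated. With both arrays held at no less than their medians, the difference was 2.08.

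Sirpa encodes signal regulatory protein alpha, the ITIM receptor of phagocytes for CD47, and is widely used to tell type 2 dendritic cells and macrophages, which carry it, from cDC1, which carry little. Its intensity was 12.9 with fucose and 40.8 without fucose (probe set 17376167). These are 3.69 and 5.35 on the log2 scale, a difference of 1.66 or 3.16-fold. Adding a constant of 16 to every intensity, which shrinks differences of dim probe sets, left Lilrb4a at 1.77, while Sirpa (0.97) and Clec12a (0.996) came just under 2-fold.

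Pilra, Cd300a, Cd300lf and Clec4a2 had low values on both arrays. Pilra, an ITIM receptor that binds sialylated O-glycans on proteins, had a log2 intensity of 2.54 with fucose and 2.72 without fucose, a difference of 0.18. Cd300a, a receptor for the phospholipids exposed by dying cells, had 2.93 and 3.04, a difference of 0.11. Cd300lf, another lipid-binding receptor of that family, had 2.54 and 2.76, a difference of 0.23. Clec4a2, which encodes the dendritic cell immunoreceptor DCIR, had 2.33 and 2.71, a difference of 0.38. Except for Cd300a, these values lay below the median of their array, and with values held at no less than that median the differences of Pilra, Cd300lf and Clec4a2 were all 0.011, the distance between the medians. For these 4 genes a change in expression was not detectable at this signal, and a probe set that responds poorly gives low values too.

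Cd300lf also appears on 2 probe sets that name it together with Cd300ld3, Cd300ld4 and Cd300ld5. They had log2 intensities of 3.45 and 3.63 with fucose and 4.18 and 4.21 without fucose, which are differences of 0.73 and 0.58. They were higher without fucose by more than the probe set of Cd300lf alone, but which of the 4 genes gave the signal cannot be told. The probe set of Cd300ld3 alone went the other way, from 4.50 to 3.44, and that gene was chosen after its value was seen.

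**Figure D2:**
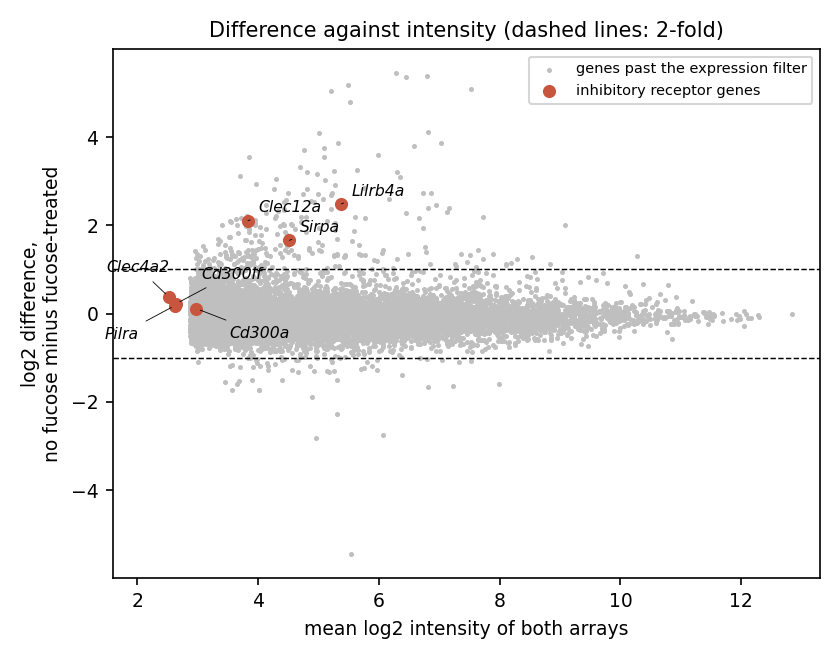
Log2 difference (no fucose minus fucose-treated, vertical axis) against the mean log2 intensity of both arrays (horizontal axis), with genes past the expression filter in gray, the 7 receptor genes in red and 2-fold as dashed lines. Lilrb4a (2.49), Clec12a (2.11) and Sirpa (1.66) lie above the upper line, and the other 4 lie at the dim end between 0.11 and 0.38.

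Promoters were read for the receptor genes, of which 3 were at least 2-fold apart and 4 were not. The RefSeq promoter table (GRCm38.p6) covers 250 bases before to 50 after a start site. It held windows for Clec12a, Cd300a, Cd300lf, Pilra and Clec4a2, and none for Sirpa and Lilrb4a. Clec12a was thus the only gene at least 2-fold apart with a window, so the groups cannot be compared. Motifs of regulators of myeloid genes were searched on both strands, and they were chosen after these windows had been seen. The letters GAGGAA, the core bound by PU.1, were in 4 of the 5 windows (Clec12a, Cd300a, Cd300lf and Pilra) and in 28.3% of all 32851 windows. The palindrome TTGCGCAA, a C/EBP motif, was in the Clec12a window and in 0.183% of all windows. TGTGGT, a RUNX motif, was in 3 of the 5 (Clec12a, Cd300lf and Pilra) and in 16.8% of all windows. Clec12a and Cd300lf each held another GAGGAA match beyond the one shown. The stretches of 30 bases below show a GAGGAA match in capitals (TTCCTC where it lies on the other strand). These stretches come from a gene that was 2-fold apart and from 3 that were not, followed by the C/EBP match of Clec12a. Each is written 5′ to 3′ on the strand of its gene.
Clec12a (chr6:129350171-129350200, plus strand): aggaagaaatatGAGGAAgaaaagtgttcc
Cd300a (chr11:114889990-114890019, plus strand): ggctagcaggtcTTCCTCtccacaaggctg
Cd300lf (chr11:115134018-115134047, minus strand): caccctacctccTTCCTCttttggtgcttt
Pilra (chr5:137836472-137836501, minus strand): agaagaaaaataGAGGAAgggaaacagaga
Clec12a, C/EBP motif (chr6:129350093-129350122, plus strand): gtaggagcaaaTTGCGCAActcgtatgaag
The GAGGAA letters were thus in the window of Clec12a, at 2.11, and in those of Cd300a, Cd300lf and Pilra, at 0.11 to 0.23. They were not in that of Clec4a2, at 0.38. A match describes the letters in the window and says nothing about binding.

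The family relatives of these receptors had mostly low values. Pirb was the only one of 22 measured with an at least 2-fold higher value without fucose, beside 1.20% of all genes. That call was lost (0.75) with values held at no less than the array median. Pirb, a paired immunoglobulin-like receptor with ITIMs that binds MHC class I, had log2 intensities of 2.44 with fucose and 3.56 without fucose, a difference of 1.12 in which the first value lies below its array's median and the filter was passed through the second. Clec7a, the beta-glucan receptor Dectin-1 from the gene cluster of Clec12a, had 3.64 and 4.56 (0.93). Cd300c, an activating member of the CD300 family, had 3.20 and 3.67 (0.47). These were the 3 relatives past the filter. Over all 22 relatives 13 differences (59.1%) were positive, beside 47.6% of all genes, and the median was 0.21. On the fucose-treated array 20 of the 22 lay below the median of all probe sets, and on the other array 13 did.

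The relatives and neighbours of the receptor genes named first here had differences of mixed sign, at low values. Clec12b, next to Clec12a in the genome, had -0.10, and Clec1b, the gene after it, had 0.22. Sirpb1a and Sirpb1c, activating relatives of Sirpa, had 0.50 and -0.04. Pilrb1 and Pilrb2, the activating counterparts next to Pilra, had -0.05 and -0.10. Around Cd300a and Cd300lf, Cd300ld had 0.59, Cd300c2 0.65, Cd300lb 0.51 and Cd300e 0.00. Among the 3 genes on each side of Clec4a2, differences ran from -0.17 in Clec4a4 to 0.42 in Clec4n, the gene of Dectin-2. All of these lay below the expression filter, so whether the genes of a family shared a difference cannot be told from them. Other neighbours lay past the filter, some of them bright, and their differences also had both signs. Il1b, near Sirpa, had 2.82 with fucose and 4.11 without fucose (1.29). Cd69, near Clec12a, had 8.80 and 9.38 (0.58), and Slc9a3r1, next to Cd300lf, had 8.72 and 8.19 (-0.52).

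Of the adaptors of the activating relatives, Tyrobp and Fcer1g were higher without fucose by more than 2-fold and Hcst was not. Tyrobp, which encodes DAP12, had an intensity of 52.8 with fucose and 291.4 without fucose, a log2 difference of 2.47 or 5.52-fold. Fcer1g, the shared gamma chain of Fc and other receptors, had 39.7 and 191.4, a difference of 2.27. Syk, the kinase that these adaptors recruit, had log2 intensities of 2.56 and 3.36 (0.80). Hcst, which encodes the adaptor DAP10 and is also expressed by T and NK cells, had 10.69 and 10.53 (-0.15). In all, 2 of the 4 genes were at least 2-fold higher without fucose, beside 2.37% of all genes past the filter.

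The enzymes that act on ITIMs showed no 2-fold difference, and over all genes only 1.20% were at least 2-fold higher and 0.257% lower. Ptpn6, the SHP-1 gene, had log2 intensities of 9.26 with fucose and 9.04 without fucose, a difference of -0.21. Inpp5d, the SHIP1 gene, had 8.07 and 8.08, and Ptpn11, the SHP-2 gene, had 6.68 and 6.63. Csk, a kinase that restrains Src-family kinases, had -0.29, the Src-family kinase gene Fgr -0.16, and the docking protein genes Dok1 and Dok2 -0.01 and 0.17. T cells also express Ptpn6, Ptpn11, Inpp5d and Csk. The 7 measured genes had a median of -0.06, which turned positive with quantile normalisation (0.013), loess (0.031) and centring on the T cell list (0.30). Lyn had no probe set of its own.

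Among 6 measured genes of protein ligands, Fn1 alone was at least 2-fold higher without fucose, beside 1.20% of all genes. Fn1 encodes fibronectin, a ligand of the LILRB4 family that monocytes also make, and had log2 intensities of 2.96 with fucose and 7.05 without fucose, a difference of 4.09. Cd47, the ligand of Sirpa on most cells, had 9.84 and 9.92 (0.08). Pianp and Npdc1, proteins that PILRA binds, had -0.28 and 0.04. Cd99l2 had 0.34 and Apoe 0.12, and Cd99 had no probe set of its own.

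Other inhibitory receptors of leukocytes did not reach 2-fold in either direction, in 14 of 14 measured. Over all genes only 1.20% were at least 2-fold higher without fucose and 0.257% lower, so this count is near those shares. With fucose 6 of the 14 lay below the median of all probe sets, and without fucose 4 did. The largest positive differences were in Ceacam1 (3.06 with fucose and 3.75 without fucose), Fcgr2b, the inhibitory Fc receptor (3.70 and 4.39), and Milr1, an inhibitory receptor of mast cells (3.64 and 4.18). Cd22, the inhibitory lectin of B cells, had the largest negative one, with 3.73 and 3.14. Pecam1 had 8.51 and 8.24 and Vsir, the gene of VISTA, 8.94 and 8.66, and both are also expressed by cells outside the myeloid lineage. Havcr2 (0.43), Cd33 (0.31) and Siglece (0.28) lay below the filter. The median of the 8 genes past it was 0.03.

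**Figure D3:**
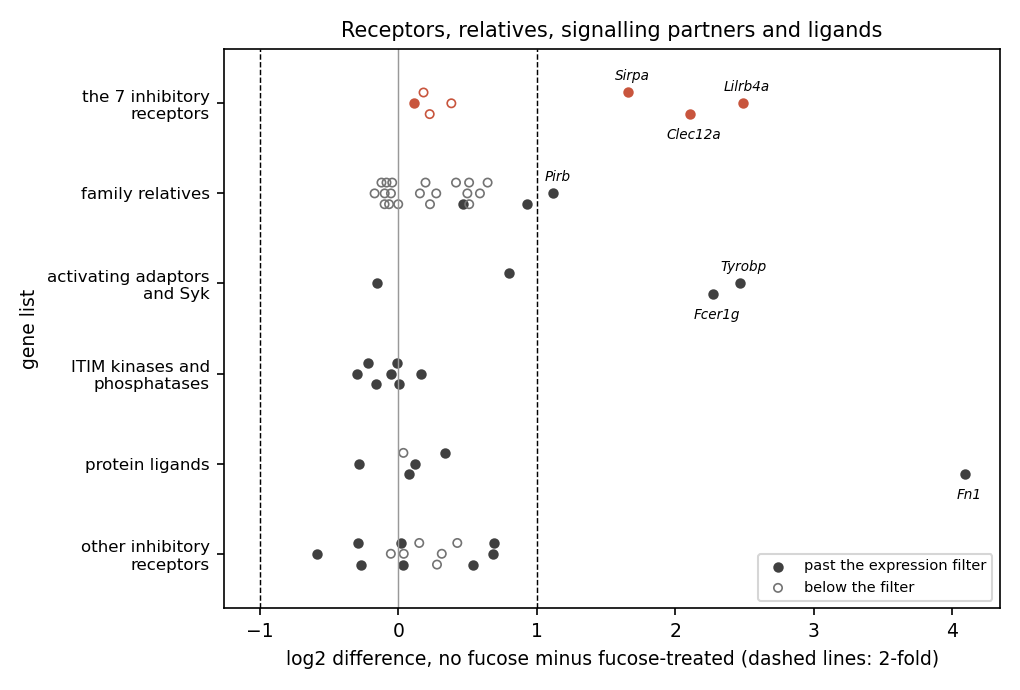
Log2 difference (no fucose minus fucose-treated, horizontal axis) of every measured gene in 6 lists, with 1 point per gene, filled points past the expression filter, open points below it and 2-fold as dashed lines. Points past the right line are Sirpa, Lilrb4a and Clec12a among the receptors, Pirb among the relatives, the adaptors Tyrobp and Fcer1g and the ligand gene Fn1, and no point lies past the left line. The vertical offset within a list only separates points.

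Marker lists of several myeloid cell types moved in the same direction as Lilrb4a, Clec12a and Sirpa. Over all genes, 1.20% were at least 2-fold higher without fucose. Of 16 measured genes of neutrophils and their precursors, 10 were at least 2-fold higher without fucose, and the summed intensity was 160.3 with fucose and 3059 without fucose. Their largest differences were in the granule protein genes Elane (5.38), Ctsg (5.37), Prtn3 (5.18) and Mpo (5.09). Of 10 monocyte genes, 6 were at least 2-fold higher, with sums of 1485 and 2326, most of it Ly6c2, which lymphocytes also express. Ms4a6c had 3.25, F13a1 3.06, Lyz2 3.03 and Ccr2 1.55, and Csf1r, the receptor of macrophage growth factor, went from 2.84 to 4.26. Of 9 basophil and mast cell genes, 5 were at least 2-fold higher, with sums of 128.6 and 1141. The part of these cells in the receptor differences was not tested.

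Dendritic cell and macrophage lists differed among themselves. The differences of all 11 measured cDC1 genes were positive, beside 47.6% of all genes. Of these 11, 5 were at least 2-fold higher, beside 1.20% of all genes. The cDC1 sums were 330.4 with fucose and 880.1 without fucose, and the largest difference was in Irf8 (2.50). A second probe set of Irf8 had 0.21. Of the 7 cDC2 genes, which here leave out Sirpa, 1 was at least 2-fold higher (Cd209a, 1.19, with a second probe set at -0.13), and the sums were 53.8 and 76.2. Itgam, which encodes the CD11b used for depletion, went from 3.07 to 3.66. None of 10 red pulp macrophage genes was 2-fold apart, with sums of 69.3 and 70.0. The largest differences were in Slc40a1 (0.77) and C1qa (-0.58), and Spic, the factor those cells require, had 2.49 on both arrays. Only 2 of the 10 passed the filter, and 6 with fucose and 5 without fucose lay below the array median. Low signal thus limits what this list can show. The 8 plasmacytoid dendritic cell genes had sums of 667.0 and 650.7, most of it Bst2 (576.9 and 568.1), and none was 2-fold apart. The part of dendritic cells in the receptor differences was not tested either.

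Lymphocyte lists showed no 2-fold differences, and the erythroid list showed large ones. The 9 T cell genes were all lower without fucose, by at most 0.50, although centring on this list sets their median to 0. Their sums were 10870 and 8802. The 6 B cell genes had sums of 68.3 and 64.2. Those of the 7 NK cell genes were 395.5 and 271.4, most of it Prf1 (273.2 and 174.1). The sum thus mainly follows 1 gene. Of these 7 genes, 2 had positive differences, Klrk1 (0.81) and Ncr1 (0.57). All 6 erythroid genes were at least 2-fold higher, beside 1.20% of all genes, with sums of 69.8 and 490.3. No array value was at 0, since the normalised intensities start above it.

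**Figure D4:**
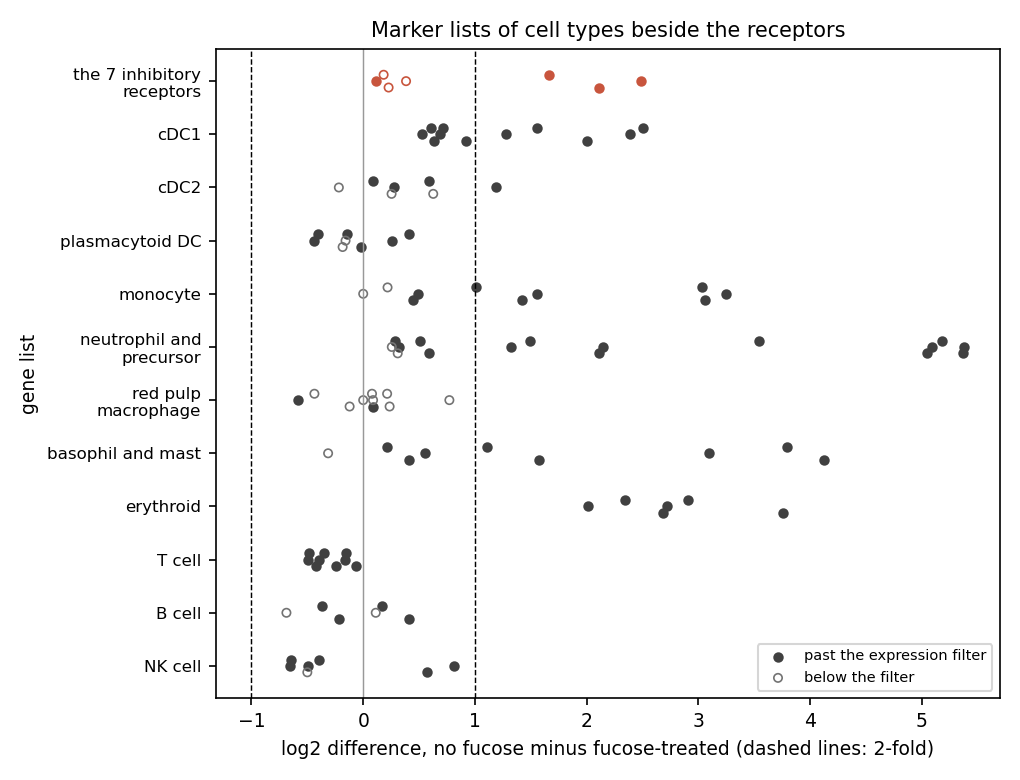
Log2 difference (no fucose minus fucose-treated, horizontal axis) of every measured gene in 11 marker lists and, on top, of the 7 receptor genes, with 1 point per gene, filled points past the expression filter, open points below it and 2-fold as dashed lines. Neutrophil, monocyte, basophil, erythroid, cDC1 and cDC2 (1 gene) lists reach past the right line, as 3 receptor genes do, and the T cell genes lie between -0.50 and -0.07.

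With 2 arrays, likeness of pattern is only closeness of 2 values. The genes past the filter nearest to the median receptor values (2.78 with fucose and 3.04 without fucose) were Rbfox2, AI661453 and Cald1, at distances of 0.012 to 0.018 on the log2 scale. These medians are near the array medians, and many genes have such values.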

How the data were processed

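Values were taken from the authors' deposited table of 41345 probe sets, with 1 linear intensity for each array in a row. Per the submitters' processing notes the authors used RMA, whose version, settings and genome build are not given in the sources used here. This method equalises the distributions of arrays, which would hide a change common to all genes. The values ran up to 9512 and were read as turned back from RMA's usual log scale, so log2 was taken of each. Of the probe sets, 23521 had 1 platform gene symbol and were used, 1814 had several and 16010 had none listed. Per gene the probe set with the highest mean of both arrays was kept, which gave 22180 genes. Each difference is no fucose treatment minus fucose-treated. There was 1 array per group, so no test, SD or p-value is given, and differences are called at 2-fold.

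The receptors and all gene lists were chosen with earlier results of these data known. Named were the 7 receptors, members of the pathway lists, up to 4 members of each marker list with the largest differences, a few fixed markers and the 3 genes nearest in pattern. Cd300ld3, Clec1b, Il1b, Cd69, Slc9a3r1, Bst2, Ly6c2, Spic, Xist and Uty were chosen after their values were seen. Calculations used Python 3.11.15 with pandas 2.3.3 and statsmodels 0.14.6. Alternatives were other normalisations, centring, floors, filters, thresholds and probe set rules.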

Additional observations from a re-analysis of the deposited data

How the results depend on the processing

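No paired analysis was possible because only 1 array was measured per group, and no array could be left out. Values counted as unmoved when they shifted by less than the robust SD of differences among genes of like intensity (0.18 to 0.38) or, for lists, among members. Quantile normalisation, loess, centring on all genes and the mean of probe sets moved none of the receptor, list or background values, and the 3 receptor genes stayed at least 2-fold higher under them and at 1.5-fold and 3-fold thresholds.

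Centring on the T cell list raised the median of genes past the filter from -0.05 to 0.31 and every difference by the same amount. It gave 2.84 for Lilrb4a, 2.46 for Clec12a, 2.01 for Sirpa, 0.74 for Clec4a2, 0.58 for Cd300lf, 0.54 for Pilra and 0.47 for Cd300a. Medians over list genes past the filter became 1.28 for relatives (0.93 before), 0.30 for ITIM enzymes (-0.06 before) and 0.47 for ligands (0.12 before). Those of NK cell genes came to -0.094 (-0.45 before) and those of T cell genes to 0 (-0.35 before). Genes at least 2-fold higher and lower then numbered 545 and 18, against 263 and 57.

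A constant of 16, which shrinks dim differences by construction, gave 1.77 for Lilrb4a, 0.996 for Clec12a, 0.97 for Sirpa and 0.10 for Clec4a2, so that 1 receptor gene stayed at least 2-fold higher. It gave 0.37 for relatives, 1.76 for erythroid genes, and counts of 116 and 11. Values held at the array median moved Clec4a2 to 0.011. Counts were 640 and 473 at 1.5-fold and 118 and 12 at 3-fold. The receptor median was 1.88 over the 4 past the filter. That filter selects genes bright on the mean of both arrays. Clec12a passed it through its no-fucose value, so nothing is read from this median.

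With no filter the relatives had a median of 0.21, against 0.93 over the 3 past the filter. A filter at the 67th percentile leaves fewer genes in each list. Like the main filter it uses the mean of both arrays, so genes can pass it through a high no-fucose value. It gave medians of 2.08 for ligands, 1.56 for cDC1, 1.19 for cDC2, 5.07 for neutrophil and 3.44 for basophil lists. At the main filter these were 0.12, 0.92, 0.43, 2.13 and 1.34. Nothing is read from these rises, since the filter favours genes that are bright on either array. The cDC2 value was that of Cd209a alone. The ligand value lay midway between Cd47 (0.08) and Fn1 (4.09), so neither describes a whole list. Low signal over background limits Pilra, Cd300a, Cd300lf and Clec4a2.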
